A study of Mus musculus with 30 samples.

Results

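C2C12 is a mouse myoblast line that stops dividing, fuses and forms myotubes when serum is lowered. Here 6 genes that are best known from fat cells were followed in it, namely Pparg, Cebpa, Cebpb, Cebpd, Lpl and Plin2, out of 48709 genes in the deposited table. The cells were exposed to 2 or 5 µM hexavalent chromium, given as potassium chromate in the differentiation medium, and were compared with cells in the same medium at 0 µM. RNA was sequenced on days 1, 2 and 4 at each dose, and on day 0 at 0 µM, which makes 10 groups of 3 libraries labelled as biological replicates. Undifferentiated cells were kept in medium with 20% fetal bovine serum, and all groups of days 1 to 4 were in medium with 2% horse serum. All groups come from a single immortal line, and the cultures behind the replicates are not described further, so the p values measure the spread between these samples. The genes were picked by name with earlier results of these libraries known, so the tests below state how each change compares with the replicate spread and are not independent evidence. Library 1 of the 2 µM group on day 1 was left out by the rule that defined the set, because it carries adipocyte transcripts, and 29 of 30 libraries were used.

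Pparg encodes the nuclear receptor PPARγ, which pairs with a retinoid X receptor on DNA, binds fatty acid ligands and drives fat cell formation. The C/EBP proteins are leucine zipper factors: in preadipocytes C/EBPβ and C/EBPδ appear early and induce Pparg and Cebpa, which then sustain each other. Lpl encodes lipoprotein lipase, which frees fatty acids from circulating triglyceride and is made by muscle as well as by fat. Plin2 encodes perilipin 2, a coat protein of lipid droplets found in most cell types, and its gene is a target of PPAR receptors.

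The promoter sequences below are shown because these genes rose at 5 µM on day 4, and the letters allow a reader to see which short elements lie next to their starts. They were taken from RefSeq on build GRCm38.p6 and run 5′ to 3′ from 250 bases before to 50 bases after an annotated start, on the strand of the gene. Of the members, 4 had an entry, in 6 windows, and 4 windows are printed. Plin2 is at chr4:86670010-86670309 on the minus strand, Cebpb at chr2:167688665-167688964 on the plus strand, and the first and the third Pparg start at chr6:115360894-115361193 and chr6:115421816-115422115 on the plus strand.
Plin2: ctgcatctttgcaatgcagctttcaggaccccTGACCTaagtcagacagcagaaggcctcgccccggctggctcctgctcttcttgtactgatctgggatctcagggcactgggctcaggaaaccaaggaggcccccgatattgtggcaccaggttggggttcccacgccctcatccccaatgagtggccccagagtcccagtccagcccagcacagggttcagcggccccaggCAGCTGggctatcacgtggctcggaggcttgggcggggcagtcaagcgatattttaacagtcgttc
Pparg, first start: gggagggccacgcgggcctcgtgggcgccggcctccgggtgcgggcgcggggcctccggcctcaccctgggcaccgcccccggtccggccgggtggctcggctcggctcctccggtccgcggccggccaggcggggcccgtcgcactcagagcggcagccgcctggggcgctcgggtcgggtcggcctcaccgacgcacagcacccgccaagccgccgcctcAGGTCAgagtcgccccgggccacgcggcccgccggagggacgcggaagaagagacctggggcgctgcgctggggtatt
Pparg, the third start: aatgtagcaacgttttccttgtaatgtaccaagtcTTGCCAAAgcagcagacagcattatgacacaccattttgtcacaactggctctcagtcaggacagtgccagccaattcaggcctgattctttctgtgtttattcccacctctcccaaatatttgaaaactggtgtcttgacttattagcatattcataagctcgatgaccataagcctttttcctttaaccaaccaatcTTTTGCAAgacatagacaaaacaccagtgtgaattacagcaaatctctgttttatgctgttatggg
Cebpb: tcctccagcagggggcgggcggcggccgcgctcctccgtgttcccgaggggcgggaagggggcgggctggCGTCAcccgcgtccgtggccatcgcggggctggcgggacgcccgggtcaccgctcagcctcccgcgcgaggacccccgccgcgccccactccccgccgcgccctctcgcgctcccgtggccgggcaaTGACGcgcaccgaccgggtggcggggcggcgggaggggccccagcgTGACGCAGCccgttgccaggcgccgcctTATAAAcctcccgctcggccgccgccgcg
Capitals mark exact matches on either strand to 6 short motifs, namely the PPAR core site AGGTCA, the C/EBP motif TTGCNNAA, the antioxidant element TGACNNNGC, the E-box CAGCTG, the CRE core TGACG and the TATA box TATAAA. A PPAR core site lies in the Plin2 window, read there on the opposite strand, and in the first Pparg window. The second Pparg window, which is not printed, also holds one, with an antioxidant element and a TATA box on the opposite strand. In Pparg, the third window holds the C/EBP motif on both strands, and the Cebpb window holds CRE cores of which 1 overlaps an antioxidant element. The TATA box letters in the Cebpb window begin 21 bases after the annotated start, not before it. These matches are common: the PPAR core site is in 16.3% of 32851 promoter windows of the same length, the C/EBP motif in 10.8%, the antioxidant element in 12.4%, the E-box in 16.3%, the CRE core in 20.8% and the TATA box in 13.6%. The full PPAR element, which is that core site repeated after a spacer base, is in 0.0396% of windows and in none of the 6 windows of these genes. A match describes letters only, and the deposited values do not separate the starts of Pparg.

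The libraries held 18462092 to 26947109 reads, and values are the authors' CPM after a further scaling per library, called scaled CPM here. All 6 genes passed the filter of at least 1 scaled CPM in 3 libraries and were tested among 12894 genes. Median reads per library were 5637 for Plin2, 429 for Lpl, 265 for Pparg, 233 for Cebpa, 179 for Cebpb and 106 for Cebpd, so counting error is smallest for Plin2 and largest for Cebpd. Skeletal muscle markers were present in every library used, with 6 to 10 of 10 markers at 1 scaled CPM or more. Most adipocyte markers were at or near 0 in the 28 libraries other than the one left out and 5 µM replicate 3 of day 1. Cfd, Lep and Pck1 were at 0 in all 28, and Adipoq reached at most 0.338 and Fabp4 1.05 scaled CPM. In the library left out Lep was also at 0 and Pck1 at 1.37, so their absence says little about adipocyte RNA. Car3 (up to 124) and Plin4 (up to 16.0) were above 0 in all 28 and made up most of their adipocyte sums. The adipocyte sums of these libraries therefore mainly follow Car3 and Plin4, and say little about adipocyte RNA. Library 3 of the 5 µM group on day 1 carried lung and myeloid transcripts, with all 10 lung epithelium markers detected. Its lung sum was 482 scaled CPM against 6.88 to 32.4 in the 28 others. The same library stood apart for myeloid markers (258 against at most 18.6), B cell markers (82.8 against at most 10.9, with Igkc at 76.1), endothelial markers (31.7 against at most 2.42) and the adipocyte marker Hp (12.6 against at most 0.975). It was kept, and the tests of the 6 genes that use day 1 at 5 µM are given with and without it, while their group means and correlations include it.

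**Figure D1:**
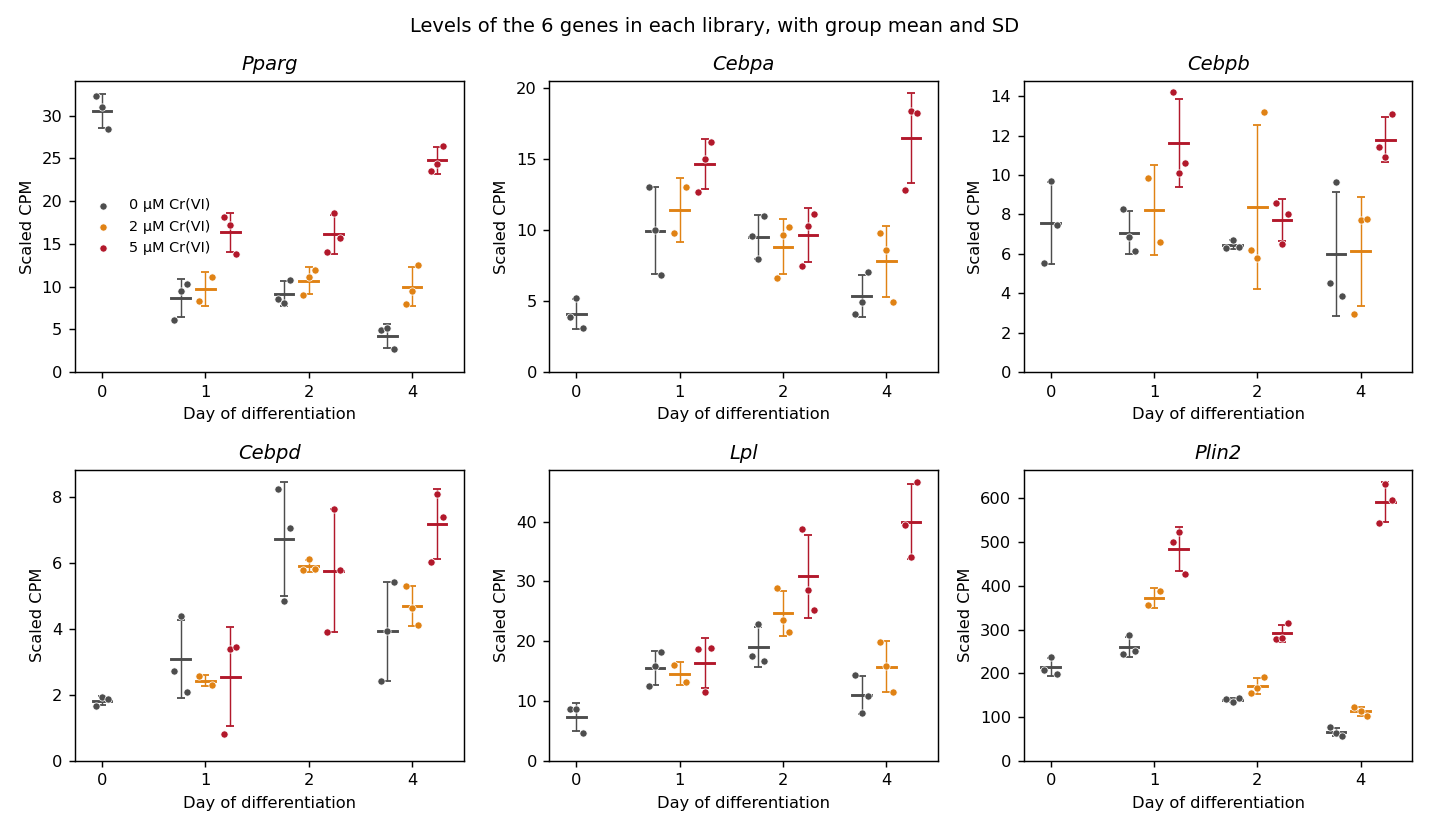
Level of each of the 6 genes in scaled CPM by day, with a point for each library, the mean and the SD, for 0, 2 and 5 µM. Plin2 at 5 µM on day 4 (543 to 633) lies above all other groups, and Pparg at 0 µM is highest on day 0 (28.4 to 32.3).

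On day 4, cells at 5 µM had more RNA from all 6 genes than cells at 0 µM. The ratio of the means was 8.97 for Plin2, 5.85 for Pparg, 3.63 for Lpl and 3.07 for Cebpa, and 1.97 for Cebpb and 1.83 for Cebpd. By limma, 6 of 6 rose, where 27.8% of all genes tested rose and 57% changed in either direction. For doses compared on the same day, rose and fell mean higher or lower than the reference dose, not a change over time. The median change of the 6 genes was 1.63 on the log2 scale, against -0.01 for all genes tested. Log2 changes are on the scale of log2(scaled CPM + 1), which understates the change of low genes.

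Pparg had 23.5, 24.3 and 26.5 scaled CPM in the 5 µM libraries of day 4, against 4.92, 5.12 and 2.65 in the 0 µM libraries. Every 5 µM library was above every 0 µM library. The log2 change was 2.34 (SE 0.22, adjusted p = 2.4e-11).

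Cebpa, which encodes C/EBPα, had 12.8, 18.4 and 18.2 scaled CPM at 5 µM, against 4.12, 4.96 and 7.01 at 0 µM. The groups did not overlap, and the log2 change was 1.46 (SE 0.26, adjusted p = 9.4e-06). Cebpb, which encodes C/EBPβ, had 11.4, 10.9 and 13.1 scaled CPM at 5 µM, against 4.52, 9.63 and 3.85 at 0 µM. Replicate 2 of the 0 µM group stood well above the other two of its group and just below the 5 µM libraries. The log2 change was 0.96 (SE 0.30, adjusted p = 0.007), and it was 0.74 (adjusted p = 0.058) without replicate 3 of the 0 µM group. Cebpd, which encodes C/EBPδ, had 6.03, 8.11 and 7.41 scaled CPM at 5 µM, against 2.41, 3.95 and 5.43 at 0 µM. The groups did not overlap but lay close, and the log2 change of 0.77 (adjusted p = 0.031) is the least secure of the 6. It passed the threshold in 8 of 17 alternative fits, edgeR on the recovered reads gave an adjusted p of 0.094, and the adjusted p ranged between 0.014 and 0.19. The change was 0.53 and 0.80 without 0 µM replicate 1 or 2 (adjusted p = 0.19 and 0.051), and 0.69 and 0.75 without 5 µM replicate 2 or 3 (adjusted p = 0.095 and 0.071).

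Lpl had 39.4, 34.1 and 46.6 scaled CPM at 5 µM, against 14.3, 7.95 and 10.9 at 0 µM. The lowest 5 µM library was above the highest 0 µM library by more than the spread of either group, with a log2 change of 1.79 (SE 0.23, adjusted p = 4.2e-08). Plin2 had 543, 633 and 597 scaled CPM at 5 µM, against 76.2, 64.4 and 56.9 at 0 µM. Its log2 change of 3.15 (SE 0.10, adjusted p = 1.8e-24) was the largest of the 6 genes. Pparg, Cebpa, Lpl and Plin2 kept direction and call in all 17 alternative fits of this comparison.

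Cell markers differed between the same day 4 groups. The skeletal muscle markers summed to 8260 to 9200 scaled CPM at 5 µM, against 24000 to 27600 at 0 µM. Adipocyte markers summed to 69.3 to 73.7 scaled CPM at 5 µM and 70.9 to 79.6 at 0 µM, with 2 of 14 markers at 1 scaled CPM or more in each library. Those 2 were Car3, which averaged 62.1 ± 1.63 scaled CPM at 5 µM and 72.1 ± 3.27 at 0 µM (SD, n = 3 each), and Plin4, a perilipin, which rose with 7.91 ± 0.647 at 5 µM and 2.55 ± 0.992 at 0 µM (adjusted p = 2.0e-04). The 11 myeloid markers summed to 13.0 to 18.6 scaled CPM at 5 µM and 1.58 to 4.41 at 0 µM. Most of that came from Cd14, with 8.11 to 12.1 at 5 µM and 0.464 to 3.04 at 0 µM, and from Cd68. In the 5 µM libraries of that day 2 to 3 of the 11 markers reached 1 scaled CPM. Besides Cd14 and Cd68, the only myeloid marker that reached 1 in the 28 libraries described above was Mrc1, at most 1.84. Ptprc, Adgre1, Csf1r and Tyrobp were at 0 in all 5 µM libraries of day 4. The 6 B cell markers summed to 0 to 0.942 scaled CPM at 5 µM and 5.43 to 10.9 at 0 µM, all of it from Ighm, with Cd79a at 0. The part of these markers in the changes of the 6 genes was not tested, and in bulk RNA fewer cells of a type and less RNA per cell cannot be told apart.

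**Figure D2:**
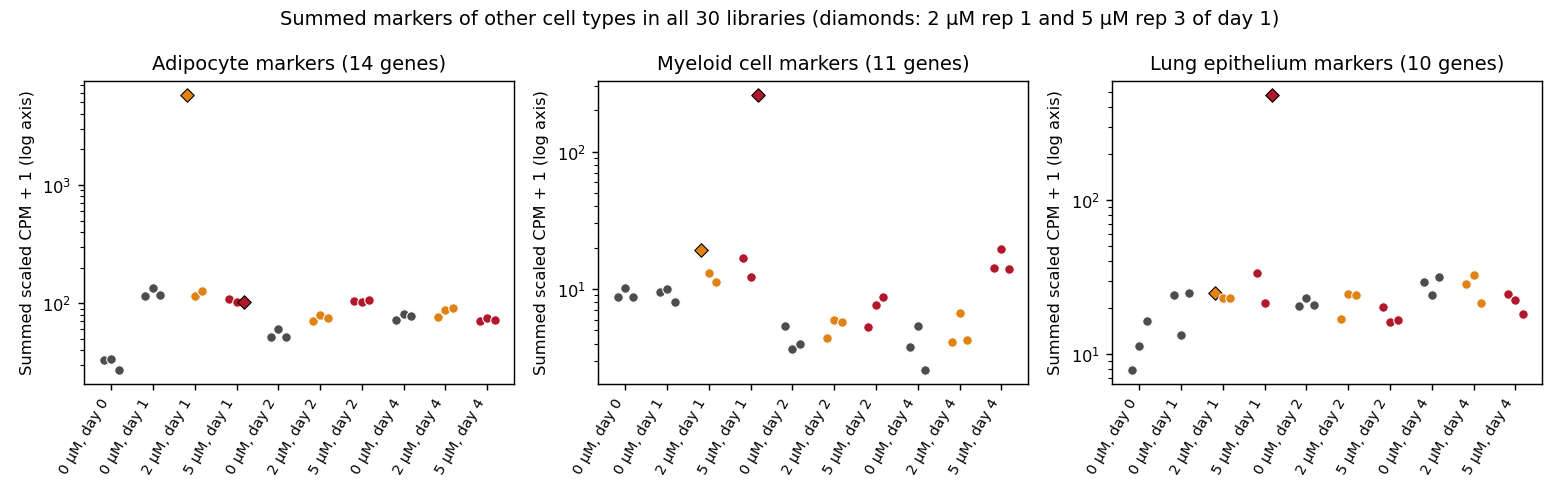
Summed scaled CPM + 1 of adipocyte, myeloid and lung epithelium markers by group on a log axis, with a point for each of the 30 libraries and diamonds for 2 µM replicate 1 and 5 µM replicate 3 of day 1. On day 4 the adipocyte sums at 5 µM (69.3 to 73.7 before adding 1) lie beside those at 0 µM (70.9 to 79.6), and the myeloid sums at 5 µM (13.0 to 18.6) lie above those at 0 µM (1.58 to 4.41). Car3 and Plin4 make up most of each adipocyte sum, except in 2 µM replicate 1 of day 1.

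On day 1, Pparg and Plin2 were higher at 5 µM than at 0 µM, which makes 2 of 6 genes where 4.8% of all genes tested rose and 14.9% changed. Pparg had 18.1, 17.2 and 13.8 scaled CPM at 5 µM, against 6.09, 9.52 and 10.3 at 0 µM. Its groups did not overlap, with a log2 change of 0.87 (SE 0.22, adjusted p = 0.0049). Without 5 µM replicate 3, which carries the lung transcripts, the change was 0.98 (adjusted p = 0.005), and without 0 µM replicate 1 it was 0.66 (adjusted p = 0.06). Plin2 had 501, 523 and 428 scaled CPM at 5 µM, against 244, 287 and 251 at 0 µM. Every 5 µM library was far above the 0 µM range, and the log2 change was 0.89 (SE 0.10, adjusted p = 1.6e-08), or 0.98 (adjusted p = 1.4e-08) without 5 µM replicate 3. The others did not pass. Cebpa differed by 0.54 (95% interval 0.02 to 1.07, adjusted p = 0.17), Cebpb by 0.64 (0.03 to 1.26, adjusted p = 0.16), Cebpd by -0.27 (-0.90 to 0.35) and Lpl by 0.05 (-0.42 to 0.53). Without 5 µM replicate 3 these were 0.47, 0.70, -0.49 and -0.06, and none passed. Cebpb had 14.2, 10.1 and 10.6 scaled CPM at 5 µM, against 8.25, 6.84 and 6.14 at 0 µM, so its groups did not overlap although the test missed the threshold. On that day the adipocyte markers summed to 101 to 108 scaled CPM at 5 µM and 114 to 133 at 0 µM. Most of that was Car3, which averaged 85.6 ± 10.3 at 5 µM and 113 ± 10.5 at 0 µM (SD, n = 3 each). The skeletal muscle markers summed to 1450 to 1770 at 5 µM and 3980 to 4410 at 0 µM.

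On day 2, Pparg, Plin2 and Lpl were higher at 5 µM, which makes 3 of 6 genes where 10.9% of all genes tested rose and 25% changed. Plin2 had 279, 280 and 314 scaled CPM at 5 µM, against 142, 134 and 143 at 0 µM (log2 change 1.05, adjusted p = 1.6e-10). Pparg had 14.1, 18.6 and 15.7 scaled CPM at 5 µM, against 8.59, 8.14 and 10.8 at 0 µM (log2 change 0.75, adjusted p = 0.0098). Both pairs of groups were apart, though Pparg missed the threshold without 5 µM replicate 2 (0.65, adjusted p = 0.058). Lpl had 38.7, 28.6 and 25.3 scaled CPM at 5 µM, against 17.6, 22.9 and 16.7 at 0 µM. These groups did not overlap but were close, and the log2 change of 0.66 (adjusted p = 0.036) passed in 11 of 17 alternative fits, with adjusted p between 0.0028 and 0.56. Leaving out 0 µM replicate 1 or 3, or 5 µM replicate 1 or 2, ended that call, with 0.61, 0.57, 0.49 and 0.70 on the log2 scale (adjusted p = 0.11, 0.13, 0.21 and 0.059). The C/EBP genes did not pass, with log2 changes of 0.01 for Cebpa (95% interval -0.52 to 0.53), 0.22 for Cebpb (-0.40 to 0.83) and -0.20 for Cebpd (-0.82 to 0.42). The adipocyte markers summed to 102 to 105 scaled CPM at 5 µM and 50.4 to 59.8 at 0 µM on that day. Most of that was Car3, which averaged 96.0 ± 1.46 at 5 µM and 50.9 ± 5.30 at 0 µM (SD, n = 3 each). Skeletal muscle markers summed to 6340 to 6880 at 5 µM and 16700 to 17300 at 0 µM, and the part of either list in these changes was not tested.

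The effect of 5 µM was larger on day 4 than on day 2 for 4 of the 6 genes, where 13.2% of all genes tested had a higher and 24.9% a changed effect. The difference of the log2 changes was 2.10 for Plin2 (adjusted p = 7.0e-14), 1.59 for Pparg (adjusted p = 1.9e-04), 1.45 for Cebpa (adjusted p = 0.0029) and 1.14 for Lpl (adjusted p = 0.01). It was 0.97 for Cebpd (95% interval 0.09 to 1.85, adjusted p = 0.10) and 0.74 for Cebpb (-0.13 to 1.61, adjusted p = 0.22), which did not pass. The Cebpa and Lpl calls were lost with the left-out library put back (adjusted p = 0.07 and 0.45). Between day 1 and day 2 the effect changed for none of the 6, where it changed for 6.58% of all genes. The estimates there ran between -0.53 for Cebpa (adjusted p = 0.49) and 0.60 for Lpl (adjusted p = 0.34). Without 5 µM replicate 3 of day 1 they ran between -0.48 for Cebpb (adjusted p = 0.68) and 0.72 for Lpl (adjusted p = 0.29), and again none of the 6 passed.

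**Figure D3:**
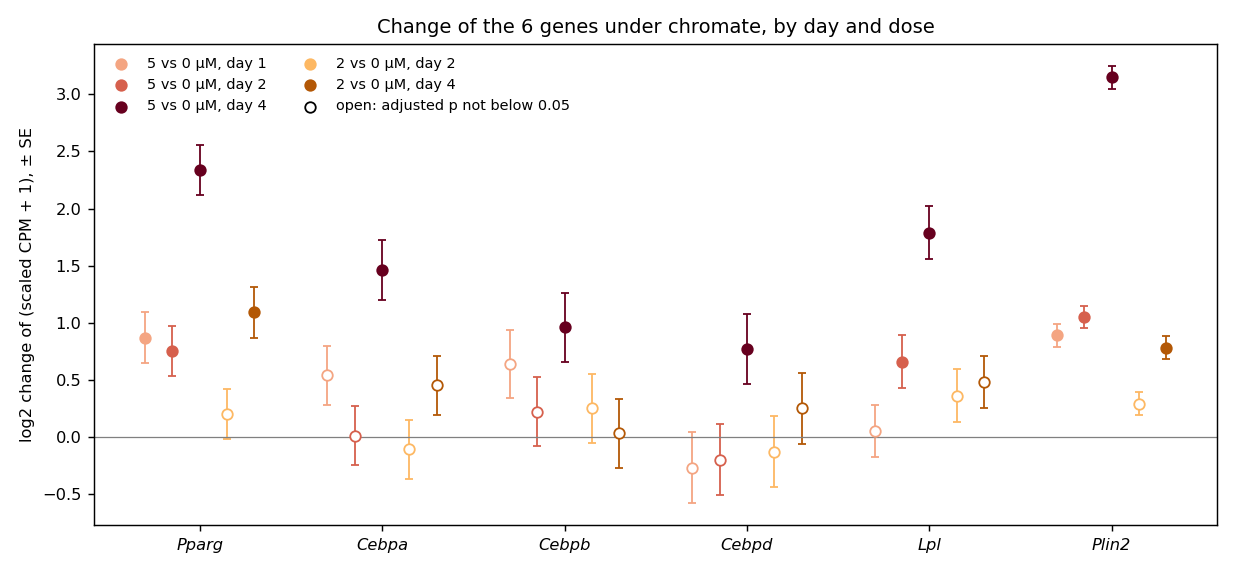
Log2 change of (scaled CPM + 1) for each of the 6 genes, with bars of 1 SE, at 5 against 0 µM on days 1, 2 and 4 and at 2 against 0 µM on days 2 and 4; open points have an adjusted p of 0.05 or more. At 5 against 0 µM the changes on day 4 run between 0.77 for Cebpd and 3.15 for Plin2, while on days 1 and 2 they stay at or below 1.05.

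At 2 µM on day 4, Pparg and Plin2 were higher than at 0 µM, which makes 2 of 6 genes where 5.51% of all genes tested rose and 9.72% changed. Pparg had 7.94, 9.54 and 12.5 scaled CPM at 2 µM, against 4.92, 5.12 and 2.65 at 0 µM (log2 change 1.09, SE 0.22, adjusted p = 7.4e-04). Plin2 had 123, 113 and 103 scaled CPM at 2 µM, against 76.2, 64.4 and 56.9 at 0 µM (log2 change 0.78, SE 0.10, adjusted p = 6.4e-07). Neither pair of groups overlapped, and both calls held in all alternative fits run. Skeletal muscle markers summed to 19600 to 21100 scaled CPM at 2 µM and 24000 to 27600 at 0 µM on that day, and adipocyte markers to 75.3 to 89.8 at 2 µM and 70.9 to 79.6 at 0 µM. Their part in these changes was not tested. The other 4 did not pass: the log2 change was 0.48 for Lpl (95% interval 0 to 0.96, adjusted p = 0.22), 0.45 for Cebpa (-0.08 to 0.97), 0.25 for Cebpd (-0.37 to 0.87) and 0.03 for Cebpb (-0.59 to 0.64). The 2 and 5 µM comparisons share their 0 µM libraries. On day 2, none of the 6 passed at 2 µM, where 0.737% of all genes changed, and the largest estimates were 0.36 for Lpl (adjusted p = 0.75) and 0.29 for Plin2 (adjusted p = 0.24). Plin2 had 155, 167 and 192 scaled CPM at 2 µM on that day, against 142, 134 and 143 at 0 µM, so its groups were apart although the test missed the threshold. On day 1 the 2 µM group had 2 libraries and no test was run: Plin2 had 355 and 388 scaled CPM there, Pparg 8.30 and 11.1, and Lpl 16.0 and 13.2. For Plin2 these lay between the ranges at 0 and 5 µM.

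Compared directly on day 4, 5 µM gave higher levels than 2 µM for 5 of the 6 genes, where 23.4% of all genes tested were higher and 48.9% differed. The log2 difference was 2.37 for Plin2 (adjusted p = 2.7e-20), 1.31 for Lpl (adjusted p = 1.6e-05), 1.25 for Pparg (adjusted p = 1.2e-05), 1.02 for Cebpa (adjusted p = 0.0013) and 0.93 for Cebpb (adjusted p = 0.01). Cebpb had 11.4, 10.9 and 13.1 scaled CPM at 5 µM, against 2.94, 7.71 and 7.75 at 2 µM, and its call was lost without 2 µM replicate 1 (0.55, adjusted p = 0.15). The Lpl call was lost with the left-out library put back (adjusted p = 0.12). Cebpd did not pass (0.52, 95% interval -0.10 to 1.14). In the same libraries the skeletal muscle markers summed to 8260 to 9200 scaled CPM at 5 µM and 19600 to 21100 at 2 µM, the myeloid markers to 13.0 to 18.6 at 5 µM and 3.12 to 5.66 at 2 µM, and the B cell markers to 0 to 0.942 at 5 µM and 4.06 to 7.62 at 2 µM. Their part was not tested. On day 2, Plin2 differed (0.76, adjusted p = 4.4e-07), which is 1 of 6 where 5.08% of all genes were higher and 13.7% differed, and Pparg did not pass (0.55, 95% interval 0.10 to 0.99, adjusted p = 0.096). Skeletal muscle markers on day 2 summed to 6340 to 6880 scaled CPM at 5 µM and 13000 to 13700 at 2 µM.

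Without chromate, the genes took different courses through differentiation. From the medium change to day 1, Cebpa, Lpl and Plin2 rose and Pparg fell, which makes 3 higher and 1 lower of 6 where 49.4% of all genes changed, 26.2% up and 23.2% down. Pparg had 6.09, 9.52 and 10.3 scaled CPM on day 1, against 32.3, 31.0 and 28.4 on day 0 (log2 change -1.74, adjusted p = 2.4e-08). Cebpa had 13.0, 9.98 and 6.85 on day 1, against 3.87, 5.22 and 3.13 on day 0 (log2 change 1.09, adjusted p = 5.9e-04). Lpl had 12.5, 15.9 and 18.2 on day 1, against 8.64, 8.63 and 4.69 on day 0 (log2 change 1.02, adjusted p = 4.4e-04). Day 0 thus held the highest Pparg level of all 10 groups, 30.6 ± 1.94 scaled CPM, and the lowest Cebpa, Cebpd and Lpl levels. Plin2 rose by 0.28 (adjusted p = 0.02), a call that was lost without day 0 replicate 1 (0.26, adjusted p = 0.063), day 0 replicate 3 (0.23, adjusted p = 0.10) or day 1 replicate 2 (0.21, adjusted p = 0.13). The Lpl call was lost with the left-out library put back (adjusted p = 0.23). Marker sums moved in the same interval: adipocyte markers summed to 114 to 133 scaled CPM on day 1 and 26.2 to 32.7 on day 0. Of the day 1 sum most was Car3, which averaged 113 ± 10.5. Skeletal muscle markers summed to 3980 to 4410 on day 1 and 785 to 993 on day 0. The part of either list in these and the later changes over time was not tested.

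From day 1 to day 2 at 0 µM, Plin2 fell (log2 change -0.89, adjusted p = 6.6e-09) and Cebpd rose (0.93, adjusted p = 0.023, but 0.061 by edgeR), which is 2 of 6 where 23.4% of all genes changed, 13.4% up and 9.94% down. From day 2 to day 4, Pparg (-0.99, adjusted p = 6.5e-04), Plin2 (-1.08, adjusted p = 1.2e-10), Lpl (-0.76, adjusted p = 0.014) and Cebpa (-0.74, adjusted p = 0.031) fell, which is 4 of 6 where 27.2% of all genes changed, 14.8% down and 12.3% up. The Cebpd rise was lost without day 1 replicate 1 or 3 (0.89 and 0.76, adjusted p = 0.068 and 0.12) or day 2 replicate 1 or 3 (0.79 and 0.89, adjusted p = 0.11 and 0.073). The Cebpa fall was lost without day 4 replicate 1 or 2 (-0.59 and -0.70, adjusted p = 0.14 and 0.077) or day 2 replicate 1 or 3 (-0.73 and -0.64, adjusted p = 0.076 and 0.12), and the Lpl fall without replicate 2 of day 4 (-0.56, adjusted p = 0.11) or of day 2 (-0.63, adjusted p = 0.086). At 0 µM the adipocyte markers summed to 114 to 133, 50.4 to 59.8 and 70.9 to 79.6 scaled CPM on days 1, 2 and 4, and the skeletal muscle markers to 3980 to 4410, 16700 to 17300 and 24000 to 27600. The B cell markers summed to 5.43 to 10.9 on day 4 and at most 0.503 on day 2. Scaling to the library total changed the genome-wide split of these comparisons, with 1420 genes higher and 1663 lower between days 1 and 2 in place of 1730 and 1282, and 1229 higher and 2348 lower between days 2 and 4 in place of 1592 and 1911.

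At 5 µM the day 2 to day 4 interval ran differently. Plin2 rose (1.02, adjusted p = 1.9e-10), as did Cebpa (0.72, adjusted p = 0.024) and Pparg (0.60, adjusted p = 0.027), which makes 3 of 6 where 21.8% of all genes rose and 42.6% changed. Lpl (0.38, adjusted p = 0.20), Cebpb (0.56, adjusted p = 0.14) and Cebpd (0.30, adjusted p = 0.45) did not pass. The Cebpa call was lost without day 4 replicate 2 or 3 (0.63 and 0.64, adjusted p = 0.091 and 0.084) or day 2 replicate 1 (0.56, adjusted p = 0.12). The Pparg call was lost without day 4 replicate 2 or 3 (0.61 and 0.55, adjusted p = 0.055 and 0.084) or day 2 replicate 1 or 3 (0.51 and 0.58, adjusted p = 0.10 and 0.064). On day 4 at 5 µM the skeletal muscle markers summed to 8260 to 9200 scaled CPM against 6340 to 6880 on day 2, the adipocyte markers to 69.3 to 73.7 against 102 to 105, and the myeloid markers to 13.0 to 18.6 against 4.33 to 7.80. Between day 1 and day 2 at 5 µM, Plin2 fell (-0.73, adjusted p = 4.9e-07) while Lpl (0.89, adjusted p = 0.0047) and Cebpd (1.01, adjusted p = 0.014) rose, which is 3 of 6 where 22% of all genes changed, 13.4% up and 8.55% down. That Cebpd call was not made by edgeR (adjusted p = 0.054). Its day 1 level at 5 µM was 0.81 scaled CPM in replicate 1 against 3.40 and 3.45 in the other replicates, and without replicate 1 the change was 0.58 (adjusted p = 0.19), with 0.81 (adjusted p = 0.098) without day 2 replicate 2. The Lpl call was lost without day 2 replicate 1 (0.72, adjusted p = 0.051) or day 1 replicate 2 (0.66, adjusted p = 0.059). Without day 1 replicate 3, which carries the lung transcripts, all 3 calls held, with -0.82 for Plin2 (adjusted p = 3.0e-07), 1.00 for Lpl (adjusted p = 0.0051) and 1.22 for Cebpd (adjusted p = 0.0074). Skeletal muscle markers at 5 µM summed to 6340 to 6880 scaled CPM on day 2 and 1450 to 1770 on day 1. Genome-wide 1733 genes rose and 1103 fell in this interval, and 1184 rose and 1695 fell with scaling to the library total.

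Ordered over all 10 groups, Plin2 was lowest at 0 µM on day 4 (65.8 ± 9.74 scaled CPM, SD, n = 3) and highest at 5 µM on day 4 (591 ± 45.5), with 1 pair of neighbours in the order that overlapped. For Pparg, day 4 at 0 µM was also lowest (4.23 ± 1.37) and stood apart from its neighbour. The other 0 and 2 µM groups of days 1 to 4 followed, and neighbours among them overlapped. The highest of them, 2 µM on day 2 (8.99 to 12.0), did not overlap 5 µM on day 2 (14.1 to 18.6). Day 4 at 5 µM (24.8 ± 1.56) came next to day 0. Lpl, Cebpa, Cebpb and Cebpd were all highest at 5 µM on day 4, with 40.1 ± 6.28, 16.5 ± 3.18, 11.8 ± 1.13 and 7.18 ± 1.06 scaled CPM, and all of those overlapped the group below. Cebpb varied least of the 6, with group means of 6.00 to 11.8 scaled CPM and overlap between all neighbours. Across the 10 group means of log2 levels, Pearson's r was 0.906 between Cebpb and Plin2, 0.794 between Cebpd and Lpl, 0.742 between Cebpa and Lpl, 0.673 between Pparg and Plin2, and 0.165 between Pparg and Cebpa. These values describe 10 points that share libraries and scaling, and carry no p.

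Among genes with a group mean of at least 5 scaled CPM, the closest pattern to Plin2 over the 10 group means was that of Cstb (r = 0.992), followed by Kitl (0.984) and Trove2 (0.98). Cstb encodes the protease inhibitor cystatin B, and Kitl the ligand of the Kit receptor. For Pparg these were Plekha3 (0.98), Slc19a2 (0.972) and Ss18 (0.957), and for Lpl March8 (0.975), Lrp6 (0.975) and Cox8a (0.97). Cebpa was nearest to Akr1a1 (0.965), Usf2 (0.964) and Atp6v0d1 (0.964), Cebpb to Wipi2 (0.953), Mocos (0.943) and Usp33 (0.937), and Cebpd to Notch1 (0.963) and Apmap (0.948).

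Some reads of the C/EBP genes cannot be told apart from a neighbour, since the strand of the libraries is not given in the sources used here. In the GENCODE annotation of GRCm38, Cebpb (chr2:167688915-167690418) shares 312 of 1504 exon bases with Tmem189 on the other strand, and Cebpd (chr16:15887286-15891031) shares 562 of 3746 with Spidr. On day 4, Tmem189 averaged 141 ± 12.8 scaled CPM at 5 µM and 142 ± 19.0 at 0 µM (log2 change -0.01, 95% interval -0.27 to 0.26), and Spidr fell (-1.37, adjusted p = 2.2e-05), the opposite of Cebpd. Lpl and Plin2 share no exon base with another annotated gene.

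The regulators around these factors were mixed on day 4. Of the adipogenic regulators tested, 10 of 23 rose and 4 fell (median log2 change 0.26), and of the inhibitors of adipogenesis 12 of 17 rose and 1 fell (median 0.90). Over all genes 27.8% rose and 29.2% fell, with a median of -0.01. Klf4, a Krüppel-like factor that acts upstream of Cebpb in preadipocytes, averaged 217 ± 17.0 scaled CPM at 5 µM and 64.7 ± 8.19 at 0 µM (log2 change 1.73, adjusted p = 6.8e-15). Klf5, a Krüppel-like factor that acts on the Pparg promoter in adipocytes, was lower, with 25.9 ± 5.23 at 5 µM against 78.9 ± 16.4 at 0 µM (-1.57, adjusted p = 7.1e-08). On day 1 it had averaged 11.9 at 5 µM and 12.3 at 0 µM. The Mediator subunit Med1, a coactivator of PPARγ, was higher at 5 µM (0.84) and Foxo1, a forkhead factor under insulin control, was lower (-1.03). Among the inhibitors, Ddit3, which encodes the dimer partner CHOP that blocks C/EBP binding and is in the list of C/EBP family genes too, averaged 45.9 ± 3.69 at 5 µM and 5.52 ± 0.783 at 0 µM (2.85, adjusted p = 3.8e-13). Trib1, a pseudokinase that sends C/EBPα for degradation, averaged 48.8 ± 4.53 at 5 µM and 9.01 ± 0.948 at 0 µM (2.31, adjusted p = 6.0e-12). The deacetylase Sirt1 (1.86) and β-catenin, Ctnnb1 (0.85), also rose.

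Of the other C/EBP family and leucine zipper genes tested, 8 of 10 rose on day 4 and 0 fell (median 0.59), where 27.8% of all genes rose and 29.2% fell. Atf3, a stress-induced factor, averaged 38.2 ± 5.89 scaled CPM at 5 µM and 4.07 ± 1.33 at 0 µM on day 4 (2.98, adjusted p = 9.4e-11). Atf4, the main factor of the integrated stress response, averaged 434 ± 38.4 at 5 µM and 288 ± 17.1 at 0 µM (0.59, adjusted p = 1.7e-07). On day 2 it was lower at 5 µM than at 0 µM, with 142 ± 7.02 against 274 ± 15.5 (-0.94, adjusted p = 2.0e-11). The genes of PPARγ's partner receptors, Rxra (0.36, adjusted p = 0.0052) and Rxrb (0.32, adjusted p = 0.029), and Ppard (0.66, adjusted p = 0.0063), which encodes the related receptor PPARδ, rose on day 4 and were named after their values were seen. The Ppard call was lost without 0 µM replicate 1 (0.45, adjusted p = 0.08). The Rxrb call was lost without 0 µM replicate 1 (0.28, adjusted p = 0.092) or 5 µM replicate 2 or 3 (0.30 and 0.27, adjusted p = 0.083 and 0.11), with median-of-ratios scaling (0.28, adjusted p = 0.055) and in a fit of the compared groups alone (0.32, adjusted p = 0.074).

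**Figure D4:**
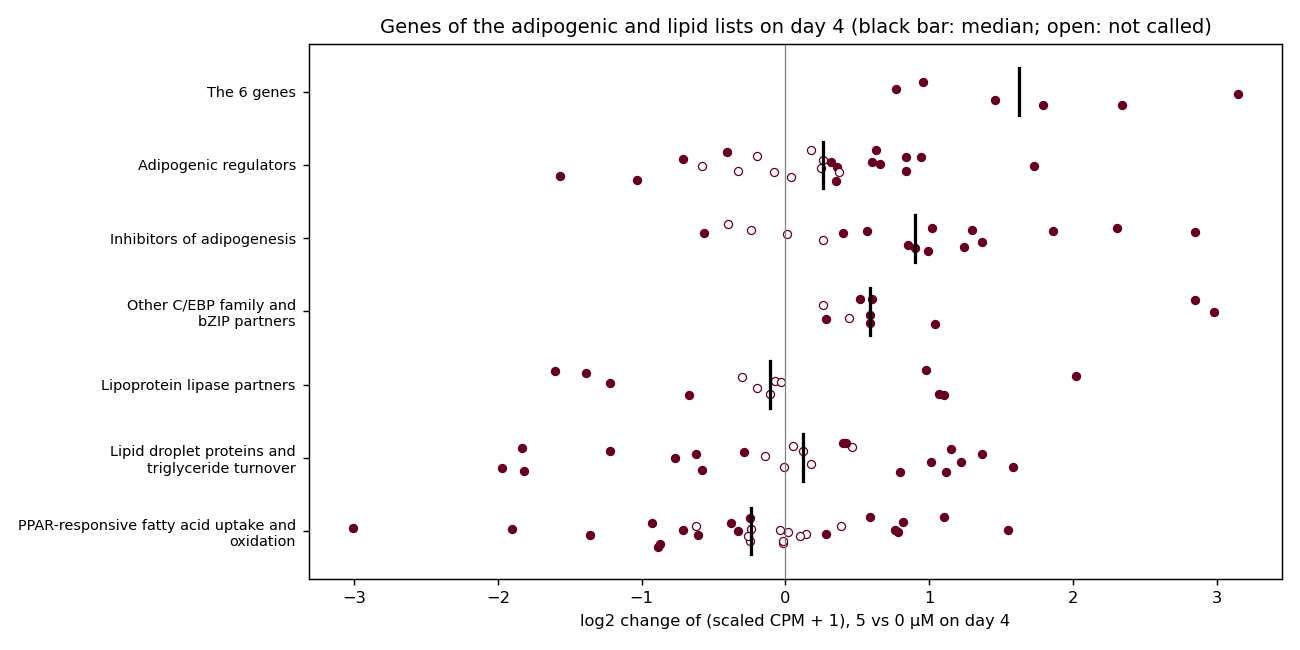
Log2 change of (scaled CPM + 1) at 5 against 0 µM on day 4 for the 6 genes, in the top row, and for every tested gene of the 6 related lists, with black bars at the medians and open points for genes that did not pass. The 6 genes all lie above 0 with a median of 1.63, and the lists have medians between -0.24 for the PPAR-responsive fatty acid genes and 0.90 for the inhibitors of adipogenesis.

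Genes that act with Lpl and Plin2 moved in both directions on day 4. Of the lipoprotein lipase partners 4 of 13 rose and 4 fell (median -0.11), of the lipid droplet and triglyceride genes 9 of 23 rose and 8 fell (median 0.12), and of the PPAR-responsive genes for fatty acid uptake and oxidation 7 of 29 rose and 11 fell (median -0.24). These shares stand beside 27.8% of all genes that rose and 29.2% that fell. The angiopoietin-like gene Angptl2 (1.07) and the heparan sulfate proteoglycan Sdc4 (0.98) rose, while Sdc1 (-0.67) and the lipoprotein receptor Lrp1 (-1.60) fell. Angptl4, which encodes an inhibitor of lipoprotein lipase and was named after its values were seen, rose (1.10, adjusted p = 6.4e-04), with 10.5, 10.8 and 9.52 scaled CPM at 5 µM against 1.61, 4.56 and 8.87 at 0 µM.

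Around the lipid droplet, Abhd5, the coactivator of triglyceride lipase, averaged 100 ± 10.9 scaled CPM at 5 µM and 45.2 ± 10.6 at 0 µM (1.15, adjusted p = 2.0e-09), and the caveolar coat gene Ptrf averaged 1200 ± 31.3 at 5 µM and 516 ± 37.4 at 0 µM (1.22). Dgat1, which makes triglyceride, was lower, with 5.75 ± 2.58 at 5 µM against 24.5 ± 2.99 at 0 µM (-1.97, adjusted p = 1.7e-10), and the acyltransferase Agpat3 was lower as well (-0.77). Dgat2, which catalyses the same step as Dgat1, rose to 10.8 ± 0.48 at 5 µM, against 3.21 ± 1.81 at 0 µM (1.58, adjusted p = 4.4e-05). The perilipins differed from Plin2 in part: Plin4 rose and Plin3 fell to 69.0 ± 7.09 at 5 µM, against 106 ± 7.74 at 0 µM (-0.62, adjusted p = 2.6e-06). Dgat2 and Plin3 were named after their values were seen.

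Among the PPAR-responsive genes, Cpt1a, the gate of fatty acid entry into mitochondria, averaged 56.8 ± 6.42 scaled CPM at 5 µM and 18.6 ± 0.954 at 0 µM on day 4 (1.55, adjusted p = 2.4e-14). The mitochondrial carrier Ucp2 (-1.90) and the long-chain dehydrogenase Acadvl (-1.36) were lower at 5 µM than at 0 µM. Cd36, the fatty acid translocase and a known PPARγ target in fat and macrophages, was named after its values were seen: it had 13.9, 11.9 and 14.8 scaled CPM at 5 µM, against 128, 113 and 106 at 0 µM (-3.01, adjusted p = 4.2e-08).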

How the data were processed

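RNA of C2C12 cells was taken with TRIzol and made into libraries with an Illumina TruSeq kit, per the labels' protocols. The deposited table holds a signal per gene and library, named CPM by the authors. Every value is a whole number of reads (100% within 0.02) times 0.038 to 0.0584, and columns sum to 892246 to 1079916, so the authors applied a further scaling. For the aligner, the counter, the build, the strand and that scaling: not given in the sources used here. Libraries held 18462092 to 26947109 reads.

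The members and lists were chosen with earlier results of these data known. The 12894 genes that reached 1 scaled CPM in 3 or more libraries were fitted as log2(value + 1) with limma 3.58.1 (R 4.3.3) on 29 libraries, with a term per group and a trended prior variance. Calls are those with a p below 0.05 after Benjamini-Hochberg adjustment over all tested genes. Adjusted p values are limma's unless another tool is named. Changes of effect were differences of differences. Replicate counts were 3 per group and 2 at 2 µM on day 1.

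The fits were tested on simulated counts in which 200 genes were changed, for 5 against 0 µM on day 4 only. The counts were drawn with the spread that edgeR estimated from these libraries, which may favour edgeR. In the data 57% of genes tested changed in that comparison, so the share of false calls there cannot be read from the simulation. Among genes called in the simulated counts, limma and DESeq2 had more false calls than the nominal 5%, in each of 5 draws, while edgeR stayed close to it. Calls near the threshold are treated here as weaker than their adjusted p states, and edgeR's value is given where it ends a call. Of 39 called results of the 6 genes, edgeR also called 36, and the 3 it did not call are all of Cebpd.

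Alternatives were other filters, a pseudocount of 0.25, median-of-ratios or library-total scaling, the left-out library put back, the compared groups alone, a replicate term, each library left out, and edgeR 4.0.16 (quasi-likelihood) or DESeq2 1.42.0 on the recovered reads. Named list genes are up to 4 called genes of a list with the smallest adjusted p and a mean of at least 5 scaled CPM in the higher group. Markers of other cells were named where they reached 1 scaled CPM. Some genes that met these rules are not reported here.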

Additional observations from a re-analysis of the deposited data

Results flagged for a closer look

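The effect of 5 against 0 µM differed between day 4 and day 2 for 4 of the 6 genes by a test of the difference itself. On the log2 scale, the day 4 effect exceeded the day 2 effect by 2.10 for Plin2, 1.59 for Pparg, 1.45 for Cebpa and 1.14 for Lpl.

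Library 1 of the 2 µM group on day 1, which no comparison used, held these genes at levels outside the other libraries. Lpl was at 756 scaled CPM there, against at most 46.6 in the 29 others, and 51.8 times the mean of the other 2 libraries of its group. Cebpa was at 87.7 (at most 18.4 elsewhere), Cebpd at 34.1 (at most 8.26), Cebpb at 21.0 (at most 14.2) and Pparg at 33.3 (at most 32.3). Plin2, at 438, was below 5 other libraries and 1.18 times the mean of its group. In the same library the adipocyte markers summed to 5800 scaled CPM, with Fabp4 at 2530 and Hp at 2070. The part of these transcripts in the levels of the 6 genes was not tested.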

How the results depend on the processing

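Of 84 results of the 6 genes over 14 comparisons, 39 were called. Of these, 21 kept direction and call in every alternative run, and none of the 39 changed sign. Of the 45 not called, 3 gained a call and 18 changed sign in at least 1 alternative. Putting back the left-out library lowered the members called to 1 for 5 against 0 µM on day 2 (3 otherwise), 1 for day 2 against day 1 at 0 µM (2), 2 for day 4 against day 2 at 0 µM (4), 1 for day 2 against day 1 at 5 µM (3), 1 for day 4 against day 2 at 5 µM (3) and 2 for the change of effect between days 4 and 2 (4). With that library put back, 5 members were called for 5 against 0 µM on day 4 (6 otherwise). For 5 against 2 µM on day 4 it was 4 (5), and for day 1 against day 0 at 0 µM 3 (4). EdgeR called 1 member for day 2 against day 1 at 0 µM. With the compared groups alone, 2 against 0 µM on day 2 gave 1 member (0 otherwise) and 623 genes (95), and 5 against 2 µM on day 2 gave 2 members (1). The same 2 µM comparison gave 55 genes with no filter and 208 with DESeq2. The cause of these differences was not tested. Leaving out a library gave 1 to 2 members for 5 against 0 µM on day 1, 1 to 3 on day 2, 1 to 2 for day 2 against day 1 and 2 to 4 for day 4 against day 2 at 0 µM, 1 to 3 for day 4 against day 2 at 5 µM, and 35 to 130 genes for 2 against 0 µM on day 2.

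Replicate numbers did not pair the samples: in 36 same-number pairs the correlation of deviations ran between -0.076 and 0.09, and 10 of 29 libraries correlated best with their own number. With a replicate block, 6 members and 7365 genes were called for 5 against 0 µM on day 4 (6 and 7345 without), and no count moved by over 1.5 times.

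Cebpd had the fewest reads of the 6 genes, with a median of 106 per library, and the part of depth in its lost calls was not tested.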
